A study of Sus scrofa with 15 samples.

Results

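The genes described here are 37 genes of cholesterol synthesis and steroid metabolism, chosen by symbol among the 22516 genes of the pig oocyte gene table. They run from the first condensation of acetyl units through the mevalonate pathway, squalene and lanosterol to cholesterol, and include the proteins that sense and take up cholesterol and those that turn it into steroid hormones. A row with the symbol was found for 35 of the 37 genes, and 32 had enough counts to be tested. The other 5 are *SCARB1*, *CYP11A1*, *CYP17A1*, *HSD3B1* and *CYP19A1*, which are taken up in their places below.

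RNA was sequenced from 15 libraries of pig oocytes, 5 per group, each a pool of 15 oocytes from sow ovaries collected at an abattoir. The paper describes 5 separate collections, with oocytes of each group taken. GV (germinal vesicle) oocytes came fresh from the follicle without culture. MII oocytes had completed 44 h of in vitro maturation (IVM) and shown a polar body, whereas ‘damaged’ oocytes showed none after the same IVM. MII and ‘damaged’ oocytes together are called MIX, and both had been cultured, so maturation and culture cannot be told apart. Cumulus cells, the somatic cells around the oocyte, had been removed before RNA extraction. GV replicate 3, the shallowest library at 6.40 M estimated counts, was left out of the tests. The study also removed a GV library of low depth, without giving its number. The tests used 4 GV, 5 MII and 5 ‘damaged’ libraries with 11.96 to 23.6 M estimated counts. In the gene table, 7 of 15 columns carry the name of another library than the one whose total they hold, so gene counts were recomputed from the transcript files and the distinction of MII from ‘damaged’ rests on the labels of those files. Oocyte markers were present throughout, with 10 of 12 genes measured (*GDF9*, *BMP15* and *ZP2* among them) and a summed level of 10370.5 to 12259 CPM (counts scaled to a common library total) in GV, 5429 to 7898 in MII and 6019 to 7985 in ‘damaged’ libraries.

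Cholesterol is made from acetyl-CoA by a chain of enzymes, most of them in the endoplasmic reticulum, and the chain also feeds isoprenoids, the side chain of coenzyme Q and the intermediates that accumulate in follicular fluid and act on meiosis. Its genes are classically switched on together by the SREBP transcription factors, which SCAP carries out of the endoplasmic reticulum when sterols are low and INSIG proteins hold back when sterols are high. Mouse oocytes make little cholesterol themselves and receive it from cumulus cells, and steroid hormones are made mainly by theca and granulosa cells. A fully grown oocyte is largely silent in transcription, so its mRNA is mostly a store that is used and removed during maturation.

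CPM were scaled by TMM factors, which set libraries on a common scale by the bulk of their genes. A gene is said to have risen or fallen where the limma-voom test gave a Benjamini-Hochberg adjusted p (FDR) under 0.01 over all 13229 genes tested, and to be a differentially expressed gene (DEG) where its log2 fold change was also above 2 in size. Fold changes are given on the log2 scale ± SE. The study made cDNA with the SMART-Seq HT kit, and no outside RNA was added as a standard. The values therefore describe the RNA captured in each library. A change in how well a transcript was captured cannot be told apart from a change in its amount. Fewer oocytes that hold a transcript and less of it per oocyte cannot be told apart either.

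Between GV and MIX oocytes the genes moved in both directions. Of the 32 genes tested, 7 rose (*MSMO1*, *ACAT2*, *HSD17B12*, *INSIG2*, *FDFT1*, *EBP* and *CYP51A1*), 17 fell and 8 did not pass the test. The 7 that rose are 21.9% of the genes tested, against 30% of all genes, and the 17 that fell are 53.1%, against 36.9%. As DEGs counted 2 of the 32 with higher values (4.27% of all genes) and 11 with lower values (16.8% of all genes). Their log2 fold changes had a median of -0.89, against -0.16 over all genes. Libraries of GV and MIX did not overlap for 7 genes that were higher in MIX (24.3% of all genes) and for 13 that were lower (29.4% of all genes).

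The scale matters for many of these calls, and not only for genes near the border. TMM factors were 1.35 to 1.73 in the GV libraries tested and 0.794 to 0.922 in the MIX libraries, so they differed between the groups compared. With library sizes alone in place of TMM factors, the median gene had a log2 fold change of -1.06, 4 of the 32 genes rose and 25 fell, and over all genes 1571 rose and 7947 fell in place of 3972 and 4888. Relative to the median gene, the values of the 32 genes moved by at most 0.042 on the log2 scale between these scalings. This closeness follows largely from the method, because a change of scale shifts all genes of a library alike. *MSMO1* stood at 2.44, *FDFT1* at 1.29 and *NSDHL* at -3.70 relative to the median gene with either scaling. Of the 7 rises, *MSMO1*, *ACAT2*, *HSD17B12* and *INSIG2* passed with library sizes alone, *FDFT1* kept its sign without passing, and *EBP* and *CYP51A1* changed sign. The 8 genes that did not pass on the TMM scale all passed as lower on this one, among them *FDX1* and *INSIG1*, whose sign turned (-0.83 and -0.67).

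**Figure D1:**
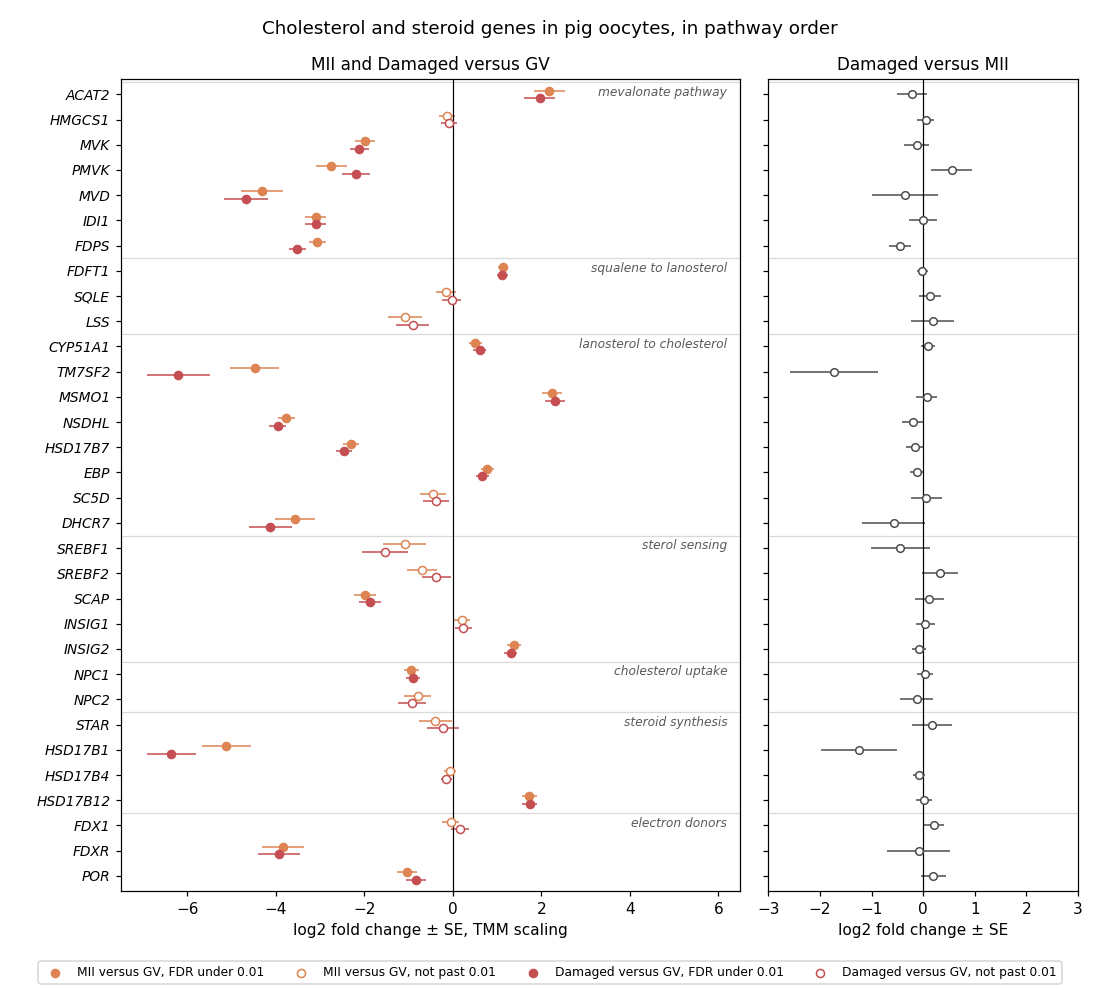
Log2 fold change (horizontal axis, ± SE) of the 32 tested genes in pathway order, for MII (orange) and ‘damaged’ (red) against GV oocytes on the left and for ‘damaged’ against MII on the right; filled points have an FDR under 0.01. Values run from -6.36 for *HSD17B1* to 2.31 for *MSMO1*, both in ‘damaged’ oocytes, and no gene passes on the right; with library sizes alone *EBP* and *CYP51A1* lie below 0.

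In the mevalonate pathway, 5 of 7 genes fell, 1 rose and 1 did not pass. The rise was at the entry. *ACAT2* (chr1:7600616-7612861, positions from RefSeq on Sscrofa11.1), the cytosolic thiolase that joins 2 acetyl-CoA molecules, stood at 6.04, 4.14, 1.38 and 2.35 CPM in the GV libraries, 8.86, 21.4, 14.1, 11.02 and 15.2 in the MII libraries and 8.55, 9.41, 13.2, 10.9 and 17.8 in the ‘damaged’ libraries. All MIX libraries lay above all GV libraries, and the log2 fold change was 2.07 ± 0.32, FDR 6.9e-06 (2.18 in MII and 1.96 in ‘damaged’ oocytes).

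*HMGCS1* (chr16:27936225-27957261), the synthase that makes HMG-CoA in the next step, did not pass. It stood at 23.6, 36.4, 34.5 and 25.9 CPM in the GV libraries, 21.4, 25.04, 37.4, 30.3 and 22.95 in the MII libraries and 27.7, 27.9, 30.1, 27.6 and 25.96 in the ‘damaged’ libraries, with overlapping groups and a log2 fold change of -0.11 ± 0.15, FDR 0.51.

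The 5 enzymes that follow, from mevalonate to farnesyl diphosphate, all fell, with log2 fold changes over 2 in size in MIX. *MVD* (chr6:1008100-1014303), the decarboxylase that makes isopentenyl diphosphate, fell most. It stood at 2.07, 4.82, 4.37 and 4.12 CPM in the GV libraries, 0.195, 0.211, 0.318, 0.0546 and 0.128 in the MII libraries and 0.157, 0.0704, 0.0625, 0.119 and 0.186 in the ‘damaged’ libraries, which are 1 to 4 estimated counts per MIX library. The log2 fold change was -4.50 ± 0.37, FDR 1.1e-09, a size that depends on so few counts. *MVK* and *PMVK*, the mevalonate and phosphomevalonate kinases that act before it, had log2 fold changes of -2.05 ± 0.18, FDR 3.7e-09 and -2.47 ± 0.27, FDR 5.9e-08. Both lie near the DEG limit. *MVK* was at -1.99 in MII and under 2 in size in MIX with DESeq2, a replicate block or only libraries whose column names agree (-1.98, -1.92 and -1.95), without MII replicate 2 or ‘damaged’ replicate 3 (-1.99 and -1.97), and at -1.42 where counts were summed over transcripts without length scaling, an alternative added after the data were seen. *PMVK* was at -1.91 with only libraries whose column names agree, a setting that keeps GV replicates 4 and 5 as the only GV libraries.

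*IDI1*, the isomerase of isopentenyl diphosphate, and *FDPS*, the farnesyl diphosphate synthase, were abundant in GV oocytes. Per length, *IDI1* went from 154 ± 24.2 TPM in GV to 9.13 ± 3.07 TPM in MIX oocytes (mean ± SD, n = 4 and 10). *FDPS* went from 121 ± 18.3 TPM in GV to 6.28 ± 1.89 TPM in MIX oocytes. TPM carry no TMM factors, so they show larger falls between stages than the TMM scale does. With library sizes alone the log2 fold changes were -4.00 for *IDI1* and -4.18 for *FDPS*. Their log2 fold changes on the TMM scale were -3.10 ± 0.20, FDR 4.2e-11 for *IDI1* and -3.29 ± 0.15, FDR 5.7e-13 for *FDPS*, and in both no MIX library reached the lowest GV library. *FDPS* and *PMVK* lie on the same chromosome, at chr4:94500140-94514820 and chr4:94861500-94913743.

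From farnesyl diphosphate to lanosterol, 1 of 3 genes rose, 1 fell and 1 did not pass. *FDFT1* (chr14:14976259-15010701), the squalene synthase that commits farnesyl diphosphate to sterols, had the highest TPM of all 32 genes in both stages. It stood at 1923, 1408, 1694 and 1362 CPM in the GV libraries, 3231, 3975, 3511, 3368 and 3339 in the MII libraries and 3470.1, 3160.1, 3783, 3458 and 3351 in the ‘damaged’ libraries, so that every MIX library was above every GV library. Its log2 fold change was 1.13 ± 0.11, FDR 8.7e-09, and with library sizes alone it was 0.23 with an FDR of 0.011, no longer past the threshold. In TPM it went from 1686 ± 78.7 TPM in GV to 1823 ± 173 TPM in MIX oocytes. Within a library, where no scaling between libraries enters, the ratio of *FDFT1* to *FDPS* in TPM lay between 10.9 and 16.5 for GV and between 182 and 418 for MIX.

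*SQLE* (chr4:14669789-14700152), the squalene epoxidase, did not pass on the TMM scale. It stood at 94.9, 126, 144 and 139.6 CPM in the GV libraries, 91.03, 87.9, 139, 99.9 and 156 in the MII libraries and 109, 96.9, 191, 91.2 and 150.4 in the ‘damaged’ libraries, and the groups overlapped. The log2 fold change was -0.09 ± 0.19, FDR 0.68, and with library sizes alone it was -0.98 with an FDR of 0.00038. *LSS*, which folds the product into lanosterol, was low, at 0.531 to 3.52 CPM over all 14 libraries. It fell by 1.00 on the log2 scale (FDR 0.0082), and the groups overlapped, with GV replicate 1 at 0.908 CPM. Leaving out any of 10 of the 14 libraries took this call away, with an FDR of up to 0.052 without GV replicate 2, and so did a replicate block (FDR 0.017).

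**Figure D2:**
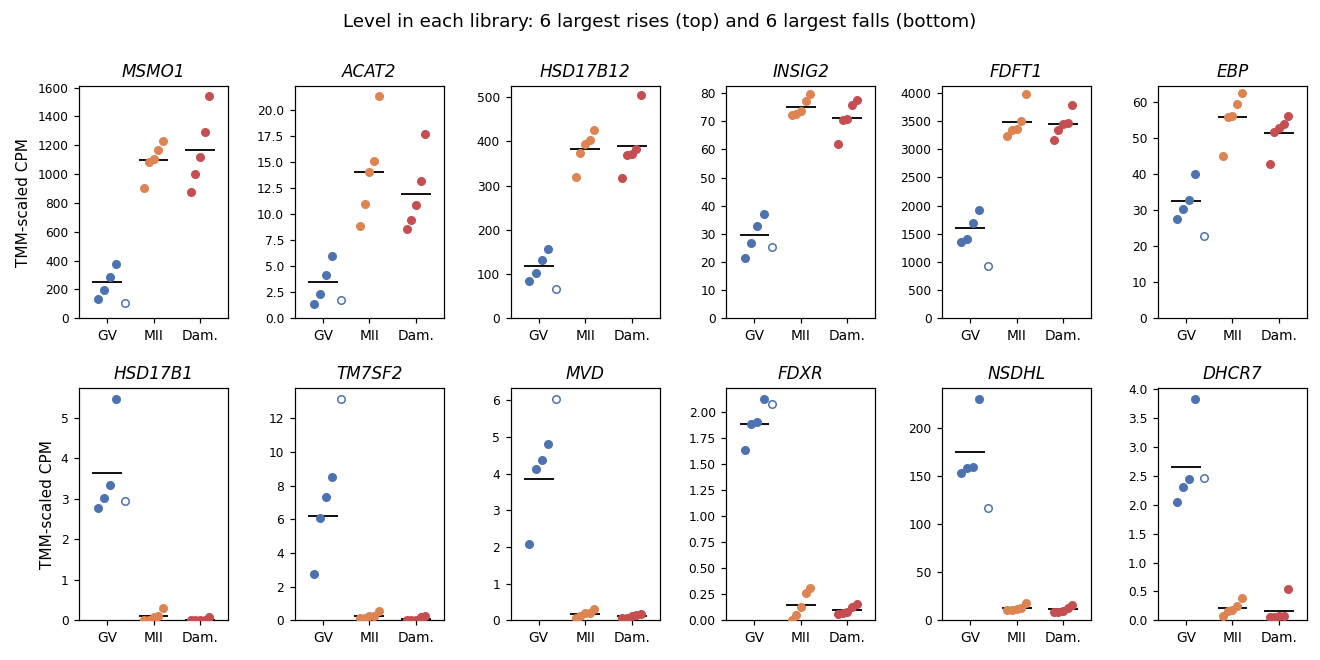
TMM-scaled CPM (vertical axis, from 0, own range per gene) in each library for the 6 largest rises (top) and the 6 largest falls (bottom) among the genes, by group; points are libraries, bars the group means, and open points GV replicate 3, which was not tested. In all 12 panels the 10 MII and ‘damaged’ libraries lie wholly above or wholly below the 4 GV libraries; on library sizes alone the fold change of *EBP* was -0.17.

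From lanosterol to cholesterol, 3 of 8 genes rose, 4 fell and 1 did not pass, with both directions among neighbouring steps. *CYP51A1*, listed in RefSeq as CYP51 (chr9:72057506-72079587) and the enzyme that takes the first methyl group off lanosterol, had a mean of 23.99 ± 3.22 CPM in GV (SD, n = 4), 34.1 ± 3.03 in MII (n = 5) and 36.4 ± 3.48 in ‘damaged’ libraries (n = 5). Its log2 fold change of 0.56 ± 0.12, FDR 4.5e-04 turned to -0.33 (FDR 0.043) with library sizes alone. With TMM factors computed anew, the call was also lost with a filter of 10 CPM (0.24, FDR 0.089). It was lost as well with only libraries whose column names agree (0.48, FDR 0.041). *TM7SF2* (chr2:7076778-7081502), a sterol reductase of the next step, fell steeply. It stood at 2.78, 7.30, 6.11 and 8.55 CPM in the GV libraries, 0.57, 0.237, 0.12, 0.155 and 0.249 in the MII libraries and 0, 0, 0, 0.257 and 0.201 in the ‘damaged’ libraries, with 0 to 6 estimated counts per MIX library. The log2 fold change was -5.34 ± 0.48, FDR 4.1e-09.

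The next 3 enzymes work together in removing the remaining pair of methyl groups. *MSMO1* (chr8:43726834-43745784), the oxidase of this step, showed the largest rise of the pathway. It stood at 376, 196, 289 and 133 CPM in the GV libraries, 1083, 1169.5, 1106, 1227 and 902 in the MII libraries and 1292, 1120.3, 1541, 1004 and 875 in the ‘damaged’ libraries. The highest GV library was below the lowest MIX library, and the log2 fold change was 2.28 ± 0.20, FDR 3.2e-09 (2.25 in MII and 2.31 in ‘damaged’ oocytes).

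Its partners moved the other way. *NSDHL* (chrX:123906130-123921935), the dehydrogenase that follows, stood at 230.4, 158, 153 and 159 CPM in the GV libraries, 11.2, 13.1, 10.97, 11.4 and 17.6 in the MII libraries and 9.06, 9.90, 9.21, 16.1 and 12.4 in the ‘damaged’ libraries. All MIX libraries were below all GV libraries, and it fell with a log2 change of -3.86 ± 0.16, FDR 1.3e-13. *HSD17B7* (chr4:87720747-87743037), the keto-reductase that completes the step, was second only to *FDFT1* by TPM in GV oocytes and went from 1107 ± 205 TPM in GV to 104 ± 9.64 TPM in MIX oocytes. On the TMM scale its log2 fold change was -2.38 ± 0.16, FDR 5.2e-11, and with library sizes alone it was -3.28.

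The ratios between these genes within a library were taken after the values were seen and have no test. The ratio of *MSMO1* to *HSD17B7* in TPM was 0.160 to 0.226 in GV, 3.33 to 5.43 in MII and 4.43 to 7.02 in ‘damaged’ libraries. The ratio of *MSMO1* to *NSDHL* was 2.23 to 5.04 in GV, 137 to 288 in MII and 166 to 447 in ‘damaged’ libraries. GV replicate 3, which entered no test, had 0.194 and 2.43 for these ratios and so lay within the range of the other GV libraries. *ERG28*, the scaffold that holds these enzymes together and singled out after its values were seen, rose (log2 fold change 1.10 ± 0.14, FDR 6.8e-07), though with library sizes alone it was 0.21 with an FDR of 0.20.

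*EBP* (chrX:42670592-42678571), the isomerase of the sterol ring, stood at 40.1, 30.4, 32.9 and 27.5 CPM in the GV libraries, 59.6, 62.6, 45.2, 55.95 and 56.3 in the MII libraries and 54.03, 56.4, 42.8, 53.03 and 51.8 in the ‘damaged’ libraries. The groups did not overlap, and the log2 fold change was 0.72 ± 0.13, FDR 4.2e-05, yet with library sizes alone it was -0.17 (FDR 0.17). *SC5D*, the desaturase after it, had 6.51 ± 1.65 CPM in GV (SD, n = 4), 4.72 ± 1.37 in MII and 5.33 ± 2.75 in ‘damaged’ libraries (n = 5 each) and did not pass (-0.42 ± 0.26, FDR 0.15). *DHCR7* (chr2:2377352-2391846), the reductase that makes cholesterol in the last step, stood at 2.04, 2.44, 2.30 and 3.83 CPM in the GV libraries, 0.187, 0.0751, 0.381, 0.157 and 0.246 in the MII libraries and 0.0752, 0.0752, 0.54, 0.0634 and 0.0663 in the ‘damaged’ libraries. The MIX libraries held 1 to 9 estimated counts each, and the log2 fold change was -3.84 ± 0.36, FDR 8.7e-09.

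Of the 5 genes that sense sterols, 1 rose, 2 fell and 2 did not pass. *SREBF2* (chr5:6719484-6784724), which encodes the SREBP factor most devoted to cholesterol genes, stood at 2.56, 5.33, 5.40 and 9.85 CPM in the GV libraries, 3.29, 2.94, 3.83, 2.68 and 3.58 in the MII libraries and 4.14, 1.96, 4.77, 4.20 and 6.26 in the ‘damaged’ libraries. The groups overlapped, with a log2 fold change of -0.54 ± 0.29, FDR 0.096, and without GV replicate 1, the lowest of the GV libraries, it was -0.85 with an FDR of 0.0052. *SREBF1* (chr12:60733967-60750951), its relative with a larger part in fatty acid synthesis, stood at 0.46, 1.61, 1.25 and 1.98 CPM in the GV libraries, 0.747, 1.05, 0.382, 0.523 and 0.308 in the MII libraries and 0.527, 0.301, 0.12, 0.444 and 0.995 in the ‘damaged’ libraries. It fell by 1.31 on the log2 scale with an FDR of 0.0082, on 2 to 15 counts per MIX library. That call was lost without any 1 of 9 libraries, with an FDR of up to 0.044 without GV replicate 5, and with a replicate block (FDR 0.027).

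*SCAP* (chr13:30253262-30320625), the escort of both factors, had 12.1 ± 3.83 CPM in GV (SD, n = 4), 2.96 ± 0.546 in MII and 3.20 ± 0.607 in ‘damaged’ libraries (n = 5 each). It fell (-1.93 ± 0.21, FDR 6.5e-08). The INSIG genes, whose proteins hold SCAP back, were read one by one. *INSIG1* (chr18:2885494-2898758), itself a classical SREBP target, stood at 9.85, 16.5, 15.3 and 15.5 CPM in the GV libraries, 19.4, 18.5, 19.4, 13.4 and 12.4 in the MII libraries and 20.3, 16.1, 15.1, 17.4 and 14.5 in the ‘damaged’ libraries. It did not pass (0.22 ± 0.17, FDR 0.25), and its sign turned with library sizes alone (-0.67, FDR 0.0035).

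*INSIG2* (chr15:23676684-23699591), which does not depend on SREBP in the same way, stood at 37.1, 26.7, 32.6 and 21.3 CPM in the GV libraries, 73.7, 72.3, 79.7, 72.5 and 77.2 in the MII libraries and 77.4, 70.6, 75.7, 70.4 and 61.9 in the ‘damaged’ libraries. The lowest MIX library was above the highest GV library, and the log2 fold change was 1.35 ± 0.13, FDR 1.8e-08. RefSeq lists a pseudogene under the same symbol, and reads that both could take are uncertain. The ratio of *INSIG2* to *SCAP* in TPM lay between 2.04 and 8.21 for GV and between 22.6 and 47.6 for MIX, and that of *INSIG2* to *INSIG1* between 1.26 and 3.46 and between 3.48 and 5.70. GV replicate 3 stood at 2.01 and 0.920 for these ratios, which have no test.

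Among the genes of cholesterol uptake, both that could be tested fell. *NPC1* (chr6:108403126-108450486), the protein that lets cholesterol out of lysosomes, stood at 89.2, 123, 107 and 129 CPM in the GV libraries, 56.9, 48.9, 81.2, 56.4 and 51.3 in the MII libraries and 48.3, 65.8, 51.6, 62.5 and 71.01 in the ‘damaged’ libraries. The highest MIX library stayed below the lowest GV library, and the log2 fold change was -0.92 ± 0.14, FDR 8.1e-06. *NPC2*, the soluble partner of NPC1, had a log2 fold change of -0.86 ± 0.26, FDR 0.0057 with overlapping groups, and the edgeR and DESeq2 tests gave it an FDR of 0.013 and 0.014. Leaving out any 1 of 6 libraries also took this call away, with the highest FDR, 0.032, without GV replicate 5. *SCARB1* (chr14:28301421-28393568), the receptor for high-density lipoprotein, held 2 to 5 estimated counts per GV and 0 to 9 per MIX library and was not tested.

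**Figure D3:**
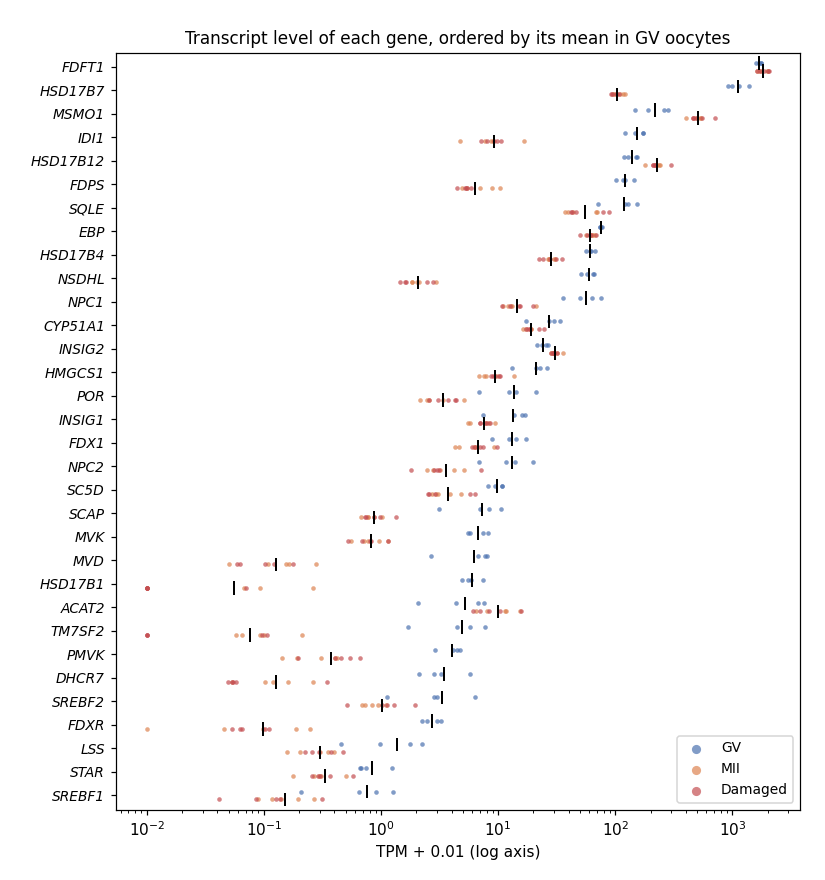
TPM plus 0.01 (horizontal log axis) of the 32 tested genes in each GV (blue), MII (orange) and ‘damaged’ (red) library, ordered by the GV mean, with a black tick at the mean of GV (upper row) and of MIX (lower row) per gene. The order changes between stages: *HSD17B7*, *IDI1*, *FDPS* and *NSDHL* held places 2, 4, 6 and 10 in GV and 4, 13, 16 and 20 in MIX oocytes.

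Steroid hormone synthesis begins where STAR brings cholesterol into mitochondria and CYP11A1 cuts its side chain. *STAR* (chr15:48377597-48385398) was near the lower limit of detection. It stood at 0.969, 0.676, 1.34 and 0.589 CPM in the GV libraries, 0.656, 0.601, 0.991, 0.682 and 0.369 in the MII libraries and 0.677, 1.28, 0.6, 0.76 and 0.464 in the ‘damaged’ libraries, which are 6 to 28 estimated counts per library. The groups overlapped and the log2 fold change was -0.31 ± 0.31, FDR 0.37. *CYP11A1* (chr7:59172829-59188479) held at most 1 count in the GV libraries and 0 to 7 in the MIX libraries and was not tested. *CYP17A1* (chr14:113805616-113820445), the enzyme that leads to androgens, was at 0 in all 8 gene table columns used, where 3 counts, the limit a count of 0 allows, are 0.124 to 0.232 CPM. No row carried the symbol of *HSD3B1* or of *CYP19A1*, the aromatase, and neither is analysed here.

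Of the enzymes that act on steroids further on, *HSD17B1* (chr12:20269468-20271349), which makes oestradiol from oestrone and is typical of granulosa cells, showed the largest fall of all 32 genes. It stood at 5.46, 3.33, 3.02 and 2.78 CPM in the GV libraries, 0, 0.0751, 0, 0.105 and 0.307 in the MII libraries and 0, 0.0752, 0, 0 and 0 in the ‘damaged’ libraries. The GV libraries held 63 to 107 counts and the MIX libraries 0 to 5, with none in 6 of the 10, and the log2 fold change was -5.74 ± 0.41, FDR 1.7e-10. *HSD17B12* (chr2:18461487-18611761), a relative that elongates very long fatty acids and also reduces oestrone, rose instead. It stood at 156, 103, 131 and 83.3 CPM in the GV libraries, 319.9, 403, 373, 426 and 394 in the MII libraries and 382, 371, 503, 368 and 318 in the ‘damaged’ libraries, with a log2 fold change of 1.74 ± 0.15, FDR 2.5e-09. *HSD17B4*, the peroxisomal member of the family, had 76.4 ± 7.30 CPM in GV (SD, n = 4), 72.8 ± 3.72 in MII and 69.1 ± 8.63 in ‘damaged’ libraries (n = 5 each) and did not pass (-0.11 ± 0.11, FDR 0.39).

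The mitochondrial and microsomal enzymes receive their electrons through FDX1, FDXR and POR. *FDXR* (chr12:6372224-6382769), the ferredoxin reductase, stood at 1.90, 1.64, 2.13 and 1.88 CPM in the GV libraries, 0.265, 0, 0.31, 0.0533 and 0.125 in the MII libraries and 0.153, 0.0764, 0.061, 0.129 and 0.0673 in the ‘damaged’ libraries. That is 0 to 4 estimated counts per MIX library, and the log2 fold change was -3.88 ± 0.36, FDR 7.7e-09. *FDX1*, the ferredoxin that it reduces, did not pass (0.06 ± 0.18, FDR 0.78), with 35.5 ± 4.32 CPM in GV (SD, n = 4), 35.2 ± 11.5 in MII and 40.1 ± 8.13 in ‘damaged’ libraries (n = 5 each). *POR*, which serves CYP51A1 and SQLE among others, fell with a log2 fold change of -0.94 ± 0.20, FDR 2.4e-04 and overlapping groups.

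Because several of these genes are typical of follicle cells, markers of such cells were read in the same libraries. Of 14 cumulus and granulosa markers other than *HSD17B1* and *CYP19A1*, 9 had gene counts, and their summed level was 78.2 to 123 CPM in GV, 171 to 305 in MII and 177 to 275 in ‘damaged’ libraries. Most of it was *KITLG*, which rose as did *FST* and *GATM* on the TMM scale (log2 fold changes 1.04, 1.54 and 2.53). *FSHR*, *AMH*, *INHBA*, *HAS2*, *TNFAIP6* and *GJA1* were under the filter on low counts, *AMHR2*, *PTX3* and *LHCGR* were at 0 in all 8 columns used, and *INHA* reached 3.04 counts in them. The sum over theca markers without *STAR*, *CYP11A1* and *CYP17A1* was 4.60 to 7.66 CPM in GV, 2.13 to 4.38 in MII and 2.94 to 4.22 in ‘damaged’ libraries, nearly all of it *COL1A2*. Leukocyte markers summed to 4.88 to 9.11, 2.33 to 2.98 and 2.08 to 3.67 CPM in the same order, and *HBB* of erythrocytes to at most 0.507 CPM. The part of such cells in the fall of *HSD17B1* was not tested.

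The transcripts within a gene were also read, a comparison added after the gene values were seen. For each gene with several transcripts and a mean of at least 1 TPM in both GV and MIX, the share of its TPM held by the transcript most abundant in GV oocytes was compared between 4 GV and 10 MIX libraries by an exact two-sided permutation test, adjusted over all 5454 such genes. The transcript was picked by its mean in the same 4 GV libraries, which favours a lower share in MIX. That pick was held fixed in the permutations, so the p values do not account for it. The same pick enters the percentage over all genes. The smallest p that this design can give is 0.000999. Of 16 genes of the pathway, 7 changed by over 10 percentage points with an adjusted p under 0.05 (43.8%), against 39.2% of all genes. The shares are Kallisto's estimates from single-end reads, which transcripts of a gene largely have in common.

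The clearest case was *NPC1*. Its transcript ENSSSCT00000004106.5, 4436 bases long, held 70.4, 84.7, 73.96 and 82.01% of the gene's TPM in the GV libraries and was listed at 0 in all 10 MIX libraries (adjusted p = 0.0034, exact permutation test). The other transcript, ENSSSCT00000069095.2 of 5133 bases, had a mean of 11.7 TPM in GV and 14.4 TPM in MIX oocytes. Its libraries overlapped, at 9.60 to 13.5 TPM in GV and 10.8 to 21.0 TPM in MIX. *HSD17B4*, whose total did not pass on the TMM scale, also held a smaller share of its main GV transcript in MIX. The gene's mean was 61.2 TPM in GV and 28.2 TPM in MIX. Transcript ENSSSCT00000097174.1 held 57.4, 76.6, 45.9 and 50.4% in the GV libraries and at most 5.98% in any MIX library (adjusted p = 0.0034, exact permutation test). ENSSSCT00000037522.3 went from a mean of 14.1 to 24.8 TPM, with overlapping libraries (3.7e-05 to 23.8 TPM in GV, 19.8 to 31.3 TPM in MIX).

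The main GV transcript of *NSDHL* held 81.2 to 89.3% of the gene's TPM for GV, against 36.9 to 69.7% for MIX. That of *HSD17B12* held 51.8 to 65.2% of the gene's TPM for GV, against 33.4 to 41.5% for MIX, while ENSSSCT00000103848.1 went from a mean of 54.1 to 141 TPM. For both, the adjusted p was 0.0034 by the exact permutation test. The *SC5D* transcript with the highest mean in GV held 49.8, 69.5, 38.7 and 48.8% of the gene's TPM in the GV libraries. It led the other transcript only in GV replicate 2, and it held 0 to 45.4% for MIX. The gene's mean was 9.78 TPM in GV and 3.75 TPM in MIX. The main transcript of *POR* held 53.7 to 88.9% of the gene's TPM for GV, against 0 to 53.8% for MIX. For *SC5D* and *POR*, the adjusted p values were 0.0084 and 0.0060 by the same exact permutation test.

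*SQLE* changed in the other direction, as its main transcript held 100, 60.4, 89.1 and 61.3% in GV and 99.6 to 100% in MIX libraries (adjusted p = 0.025, exact permutation test). GV replicate 1 was already at 100%, and without GV replicate 2, 4 or 5 the adjusted p rose to 0.080, 0.076 and 0.079. The other 9 genes included *FDFT1*, with 93.6 to 96.0% for GV and 97.1 to 97.8% for MIX, a shift under 10 points.

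**Figure D4:**
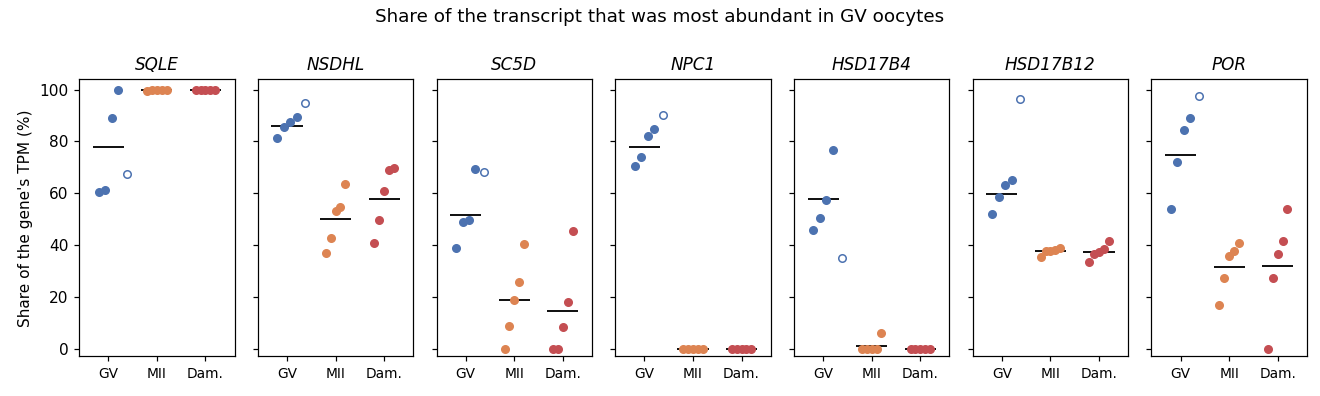
Share of the gene's TPM (vertical axis, %) held by the transcript that was most abundant in GV oocytes, in each library, for the 7 genes whose share changed; points are libraries, bars group means, open points GV replicate 3. *NPC1* is at 0% in all MII and ‘damaged’ libraries after 70.4 to 84.7% in GV, and *SQLE* is at 99.6 to 100%.

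MII and ‘damaged’ oocytes were also compared with GV and with each other, to ask whether oocytes that failed to show a polar body differ in these genes. Against GV, the count was 7 rises and 14 falls in MII (28.2% and 34.2% of all genes) and 7 rises and 14 falls in ‘damaged’ oocytes (28% and 33.4% of all genes). DEGs were 2 with higher and 10 with lower values in MII (4.51% and 17% of all genes), and 1 and 11 in ‘damaged’ oocytes (4.08% and 16.4% of all genes). These comparisons share the GV libraries. *LSS*, *SREBF1* and *NPC2* passed in the pooled comparison and in neither of these. Between ‘damaged’ and MII oocytes no gene of the 32 passed (0% of all genes), and 194 of all genes had an unadjusted p under 0.05.

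The log2 differences of ‘damaged’ from MII centred on -0.01 (median), and 28 of 32 were under 0.5 in size, with SEs of 0.11 to 0.85. *FDPS* had the smallest p, 0.046 before adjustment in limma-voom (FDR 1.00), with 8.17, 5.09, 8.32, 4.53 and 6.19 CPM in MII and 4.93, 4.79, 4.70, 3.81 and 4.39 CPM in ‘damaged’ libraries. The groups overlapped. *TM7SF2* had the largest difference, -1.72 ± 0.85, on 2 to 6 and 0 to 4 counts per library. The edgeR and DESeq2 tests also passed none of the 32 genes, nor any other gene, and 2 and 3 of the 32 had an unadjusted p under 0.05 there.

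Genes around the pathway were taken from 3 further lists. Over all 13229 genes, 30% rose and 36.9% fell, and with library sizes alone 1571 rose and 7947 fell. Of 22 tested genes of cholesterol synthesis and sterol sensing beyond the members, 8 rose, 4 fell and 10 did not pass (median 0.34 on the log2 scale), and with library sizes alone 1 rose and 12 fell. The largest rise was that of *EBPL*, an EBP relative (1.22 ± 0.11, FDR 4.6e-09).

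Of 22 tested genes of cholesterol uptake, export, storage and transport, 3 rose and 10 fell, against 30% and 36.9% of all genes. The other 9 did not pass (median of the list -0.46), and on library sizes alone 0 rose and 15 fell. *LIPA*, the lysosomal lipase of cholesteryl esters, rose most (1.11 ± 0.11, FDR 3.3e-08), though with library sizes alone it was 0.22 with an FDR of 0.10. *GRAMD1A*, a sterol carrier at membrane contacts, fell most (-4.09 ± 0.39, FDR 1.1e-08).

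Of 19 tested steroid enzymes and regulators, 2 rose and 9 fell, against 30% and 36.9% of all genes. The other 8 did not pass (median of the list -0.70), and on library sizes alone 1 rose and 15 fell. *CYB5A*, the cytochrome that assists several of these enzymes, rose most (2.03 ± 0.17, FDR 2.4e-09). *HSD17B2*, which inactivates oestradiol, fell most (-3.59 ± 0.45, FDR 5.0e-07).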

How the data were processed

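Libraries of 15 pig oocytes (5 GV, 5 MII, 5 ‘damaged’) were analysed from the deposited files, with groups taken from the labels. The authors made estimated counts and TPM (scaled by length and to a fixed total) per transcript with kallisto 0.43 on Sscrofa11.1, and estimated counts per gene with tximport (lengthScaledTPM), with no normalization between libraries. Of 15 gene table columns, 8 were used; 7, whose names disagreed with their totals, were not. Transcripts were assigned to genes by matching these 8 columns (17640 genes, at least 99.9% of counts), and gene counts of all libraries were recomputed.

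Gene counts were tested with limma-voom (limma 3.58.1) after edgeR 4.0.16 filterByExpr and TMM scaling, in 1 fit of 3 groups over 14 libraries, with MIX as the mean of MII and ‘damaged’. The study's thresholds were FDR under 0.01 and log2 fold change over 2 in size. On simulated data for MIX versus GV with 13229 genes and a dispersion of 0.05, 200 of 200 genes changed by 3 on the log2 scale were recovered. The changed genes were well counted and moved in both directions. The simulation therefore does not cover genes with few counts or a shift of most genes. Expected counts were rounded only for DESeq2 1.42.0. Replicate libraries of a group differed by more than counting error (chi-square per gene 15.2 to 209 in 30 pairs). Limits from a count of 0 cover counting error only.

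Named with values in every library were up to 6 rises, the 6 largest falls and 10 genes fixed for their place. Members and lists were chosen with earlier results of these data known. RefSeq positions were matched by symbol. Alternatives were other scalings, tests, filters, a replicate block, library weights and leaving out each library. Promoter and protein sequences were not analysed here. Some genes of the wider lists are not reported here.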

Additional observations from a re-analysis of the deposited data

Results flagged for a closer look

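In 96 groups of 4 or 5 libraries, 6 had a library far from the others by Dixon's criterion, and chance alone marks about 1 in 20 groups. *CYP51A1* in GV replicate 1 stood at 19.2 CPM, with the other GV libraries at 25.3 to 25.8. *NSDHL* in GV replicate 1 stood at 230.4 CPM, above 159 CPM in the next. *NPC1* in MII replicate 3 stood at 81.2 CPM, with the next at 56.9. *TM7SF2* in MII replicate 1 stood at 0.570 CPM, with the next at 0.249, *DHCR7* in ‘damaged’ replicate 3 at 0.540 CPM, with the next at 0.0752, and *HSD17B1* in ‘damaged’ replicate 2 at 0.0752 CPM, with the others at 0. The last of these is a single count.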

How the results depend on the processing

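The 7 rises and 17 falls in MIX changed most with library sizes alone (4 rises) and with a filter of 10 CPM (6 rises and 8 falls, 19 of the 32 genes being left). Over all 7465 genes left by that filter, 2622 rose and 3016 fell. Only libraries whose column names agree gave 6 rises and 15 falls, against 3262 and 4218 of all 13847 genes. These are 8 libraries, with GV replicates 4 and 5 as the only GV libraries, so fewer calls can pass. As DEGs with higher values, 2 in MIX became 0 with library sizes alone or 10 CPM, and 1 with edgeR, DESeq2, counts summed without length scaling (chosen after seeing the data) or without GV replicate 4 or 5 or MII replicate 2 (range over libraries left out 1 to 2). *ACAT2*, at 2.07, was the one near the limit. DEGs with lower values became 5 in MIX, MII and ‘damaged’ with 10 CPM (1177, 1191 and 1159 of all 7465 genes). In MII, library sizes alone gave 4 rises, 25 falls and 0 DEGs with higher values, and 10 CPM 8 falls and 0 such DEGs, with 1 to 2 on leaving out a library (1 without GV replicate 4 or 5). Over all genes in MII, library sizes alone gave 1447 rises and 7611 falls of 13229, and 10 CPM 2890 falls of 7465. Over all genes in ‘damaged’, library sizes alone gave 1476 rises and 7403 falls of 13229, and 10 CPM 2839 falls of 7465. For the members in ‘damaged’, library sizes alone gave 3 rises, 24 falls and 0 DEGs with higher values, and 10 CPM 8 falls and 0. There, 2 such DEGs in place of 1 were found with no filter, all 5 GV libraries, library weights or only libraries whose column names agree, and 1 to 2 on leaving out a library (2 without GV or ‘damaged’ replicate 1 or 2).

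Signs turned with library sizes alone for *CYP51A1* (-0.33), *EBP* (-0.17), *INSIG1* (-0.67) and *FDX1* (-0.83), with 10 CPM for *INSIG1* (-0.11) and *FDX1* (-0.26), with all 5 GV libraries for *HSD17B4* (0.020), with summed counts for *SQLE* (0.067) and *SC5D* (0.063), and for *FDX1* without GV replicate 1, MII replicate 5 or ‘damaged’ replicate 3 (range over all libraries left out -0.024 to 0.12). Library sizes alone change the scale. The filter of 10 CPM changes the genes left, and TMM factors were computed anew from these, so the scale changed too. With that filter *ACAT2*, *MSMO1* and *CYP51A1* were also lower (1.75, 1.96 and 0.24, against 2.07, 2.28 and 0.56). Whether the scale alone turned these signs was not tested. Of 787 fold changes under an alternative, 729 kept direction and side of the threshold. Many of these alternatives share most libraries and the scaling with the main fit. The count therefore does not measure how far the calls depend on the scale.

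The labels do not say whether a replicate number marks a shared collection. Deviations of same-numbered libraries correlated at -0.102 to 0.320 in 13 pairs (median 0.072, against -0.0092 in other pairs), with 3 over 0.1, so whether the numbers pair the libraries cannot be told from them. A replicate block left 7 rises and 15 falls in MIX, without the calls of *LSS* and *SREBF1* (FDR 0.017 and 0.027). Genes under about 1 CPM rest on few counts, and the depth limits their fold changes.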
